A study of Sus scrofa with 9 samples.

Results

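Exonic 5-hydroxymethylcytosine (5hmC) was described here at 46 keratin and epidermal barrier genes of swine adipose-derived mesenchymal stem/stromal cells (MSCs). The genes were taken by symbol, as every symbol made of KRT and a number together with IVL, LOR, TGM1, TGM3, TGM5, SPINK5, KLK5, KLK7, DSG1, DSG3 and DSC1. All 46 were present in both deposited tables, of 18933 genes in the table of Obese- and Lean-MSCs and of 18992 in the table of vitamin-C-treated and untreated Obese-MSCs. They comprised 35 keratins (21 type I and 14 type II) and 11 barrier genes. FLG was also sought by symbol. FLG, KRT7, KRT14, KRT16 and KRT17 had no row under these symbols in either table, so they were not analysed here.

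The cells came from female domestic pigs, aged 3 months at the start of the diets. Lean pigs received standard chow and Obese pigs a high-fat/high-fructose diet, and subcutaneous abdominal fat was taken after 16 weeks. MSCs were expanded in culture, and Obese-MSCs at the third passage were grown for a further passage without or with 50 µg/mL added vitamin-C for 48 h. The growth medium itself held some vitamin-C, for which reason the authors state that its effect may have been underestimated. Each group had 3 libraries, named by the submitters Lean 7 to 9, Obese 1 to 3 and treated Obese 4 to 6, and no library was treated in the Lean group. The passage of the Lean cultures is given only as the third or the fourth, so passage and diet cannot be told apart. The sources do not say whether a treated and an untreated culture came from the same pig, and the untreated Obese libraries stand in both comparisons.

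Keratins are the intermediate filament proteins of epithelia. A type I (acidic) chain pairs with a type II (basic) chain, and pairs mark cell states: KRT5 in the basal epidermis, KRT1 with KRT10 above it, KRT8 with KRT18 in simple epithelia, and a large set in hair and its inner root sheath. The barrier is then built by transglutaminases (TGM1, TGM3, TGM5), which cross-link involucrin (IVL) and loricrin (LOR) into the cornified envelope, by desmosomal cadherins (DSG1, DSG3, DSC1), which hold keratinocytes together, and by the proteases KLK5 and KLK7 with their inhibitor SPINK5, which govern shedding. MSCs are not epithelial, and their main intermediate filament is vimentin. 5hmC is an oxidized form of 5-methylcytosine made by TET enzymes, for which vitamin-C is a cofactor. In hMeDIP-seq, DNA fragments that carry 5hmC are pulled down with an antibody and sequenced, and the values here count such reads over the exons of each gene. They give the level of the mark, not of the transcript.

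Library totals ran from 494566 to 522269 normalized counts in the first table and from 547242 to 593846 in the second. Below 10, every value of Lean replicate 8 lay within 0.05 of a multiple of 0.9925, and every value of treated replicate 4 within 0.05 of a multiple of 1.0065, so that 1 read was worth about 1 normalized count in these libraries. Depth was not recovered for the others. Treated replicates 4, 5 and 6 deviated from their group mean together with untreated replicates 1, 2 and 3, in that order. The correlation across 7485 genes with a mean above 20 was 0.44, 0.59 and 0.32, and below 0 for the other 6 combinations. Across all 18992 genes it was 0.19, 0.24 and 0.11. Deviations within a group add up to 0, so the combinations are not independent of each other. Whether such libraries share a pig is not stated. Reads were also found at genes that mark other cells, at unequal levels. PTPRC (CD45, of leukocytes) had means of 46.9 in Obese- and 59.3 in Lean-MSCs, CD34 18.7 and 17.8, and CD14 2.02 and 0. The adipocyte gene ADIPOQ had 95.9 and 96.0, and PLIN1 4.45 and 3.46. The endothelial gene PECAM1 had 140 and 127, and CDH5 15.4 and 11.0. Of the MSC markers, ENG had 57.3 and 40.4, NT5E 30.9 and 26.9, and THY1 21.8 and 17.1. No marker of the list met the study's criteria in either comparison, and vimentin (VIM) had 73.1 ± 8.61 in Obese- and 57.8 ± 8.82 in Lean-MSCs (SD, n = 3).

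The 46 genes held little of the signal. They made up 0.243% of the genes of the first table and 0.0706% to 0.0824% of its normalized counts in each library, and 0.0632% to 0.0819% in the second table. The median gene mean was 4.30 normalized counts for the members and 12.6 for all genes in the first table, and 4.74 against 13.9 in the second. Of the 46, 11 (23.9%) had a mean above 10 in the first table, as did 56.6% of all genes, and 25 lay below the 25th percentile of all genes. The members were also short genes, with a median span of 7.94 kb from first to last base, against 21.6 kb for all genes. Per kb of gene span the difference in level was small, at 0.546 normalized counts for the median member and 0.560 for the median gene, and 22 of 46 members were above the latter. In the second table the same medians were 0.580 and 0.628. Exon lengths were not used here, so a span that is mostly intron lowers the value per kb.

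Per kb of span, the members with the most 5hmC were KRT19 and KRT20, 2 of the 4 keratins of simple epithelia. KRT19 (simple and ductal epithelia) had 4.05 normalized counts per kb over the 6 libraries of the first table and KRT20 (gut epithelium) 3.27, followed by KLK7 at 2.56, the hair keratin KRT33A at 2.43 and TGM5 at 2.40. The other 2, KRT18 and KRT8, had 0.463 and 0.293, below the median member. The lowest were KRT6A, the stress-induced keratin, at 0.0796 and KRT79 at 0.118. In the second table KRT19 and KRT20 again headed the order, with 4.56 and 3.54, and KRT6A ended it, with 0.0405. Neighbours in this order lay within the spread of the libraries: KRT19 had 17.2 ± 4.33 normalized counts in Obese- and 12.4 ± 4.70 in Lean-MSCs, and KRT20 28.0 ± 5.80 and 30.3 ± 6.80 (SD, n = 3).

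**Figure D1:**
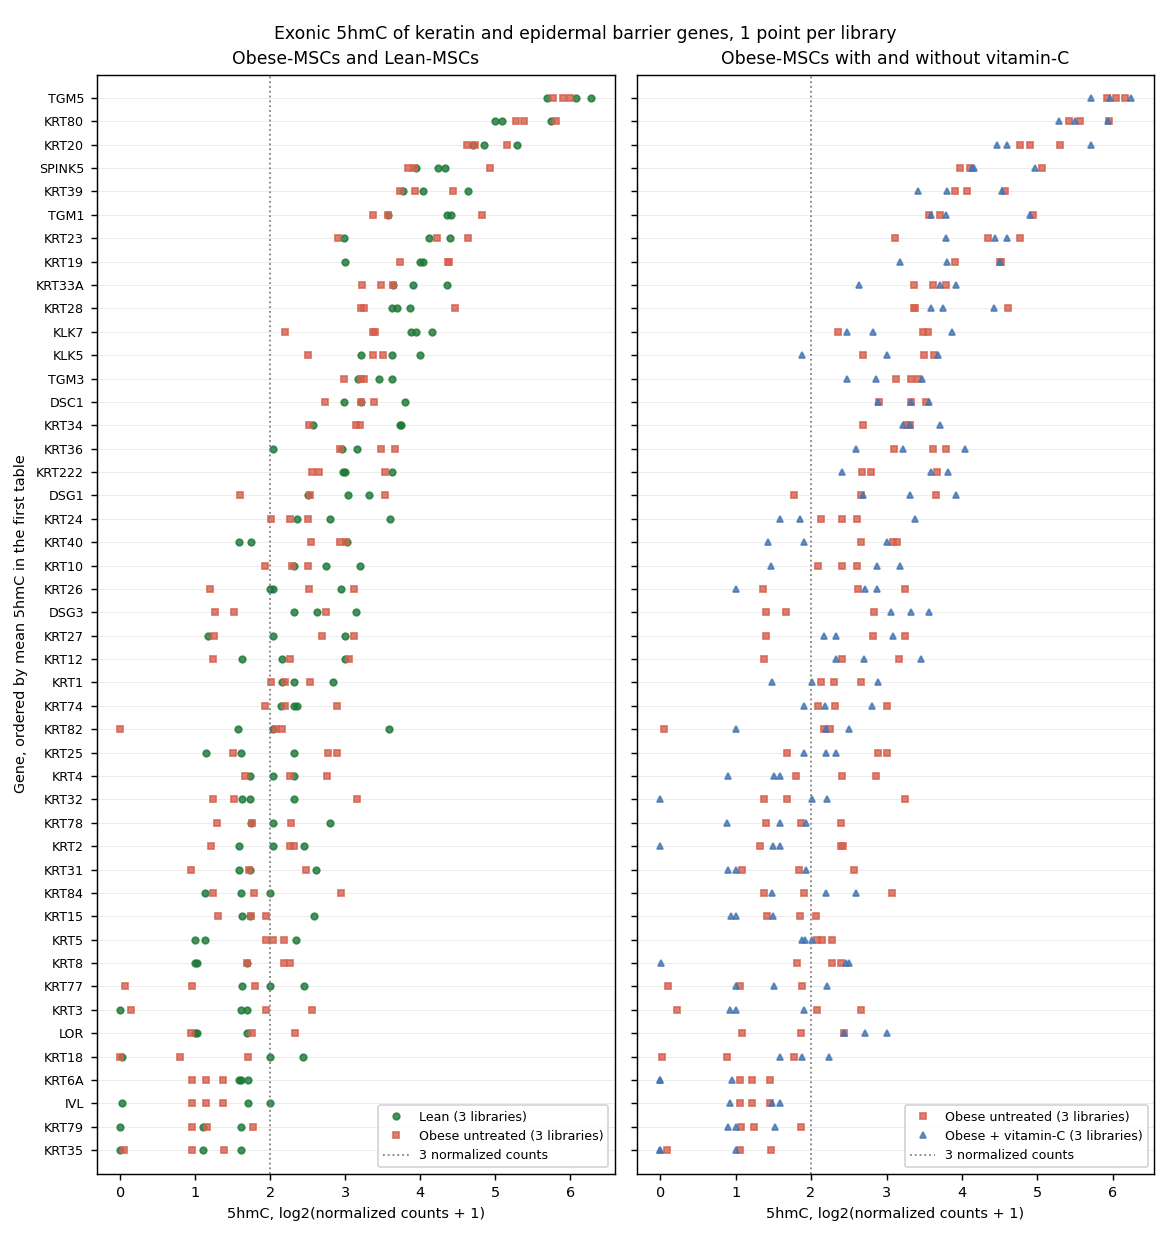
Exonic 5hmC of the 46 keratin and epidermal barrier genes in each library, as log2(normalized counts + 1) on the x axis, with genes on the y axis in order of their mean in the first table. The left panel shows the 3 Lean and 3 Obese libraries of the first table and the right panel the 3 untreated and 3 vitamin-C-treated Obese libraries of the second. The dotted line marks 3 normalized counts, and for most genes the symbols of both groups are interspersed.

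Over the whole gene, with no correction for length, TGM5, KRT80, KRT20 and SPINK5 had the most normalized counts. TGM5, a transglutaminase of the upper epidermis (chr1:128191647-128217249, Sscrofa11.1, as for all positions), had 53.45, 62.6 and 58.8 normalized counts in Obese replicates 1 to 3, and 76.6, 50.6 and 66.8 in Lean replicates 7 to 9. KRT80 (chr5:17482454-17506462) had 54.9, 40.7 and 37.9 against 33.0, 52.6 and 30.9. In both genes the groups overlapped. SPINK5, the inhibitor of KLK5 and KLK7, had 29.5, 14.1 and 13.2 in Obese- and 19.1, 17.9 and 14.4 in Lean-MSCs. TGM1 had 27.3, 9.37 and 10.88 against 20.2, 10.91 and 19.5. In SPINK5 and TGM1 alike, Obese replicate 1 was the highest of the 6 libraries and the other 2 Obese libraries were below every Lean library. For TGM1, however, Obese replicate 3 and Lean replicate 8 were nearly level.

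All 35 keratins lie in 2 loci. The type II locus spans 739 kb (chr5:17482454-18221432) and holds 15 members, the 14 type II genes and KRT18, a type I gene that lies beside its partner KRT8. KRT80, at 1 end, had 1.74 normalized counts per kb over the 6 libraries of the first table (a mean of 41.7 over the gene) and the other 14 had between 0.0796 and 0.733 per kb. The median of the 15 was 0.361 per kb, and 8 had a mean of 3 or less. The type I locus spans 663 kb (chr12:21115453-21778893) and holds 20 members, of which 3 had a mean of 3 or less, with a range of 0.174 (KRT35) to 4.05 (KRT19) and a median of 0.779 per kb. The second table gave 0.403 and 0.849 per kb for the 2 loci. Neighbouring genes of a locus are not independent, no test was made between the loci, and reads of near-identical keratins may be split or dropped in counting.

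**Figure D2:**
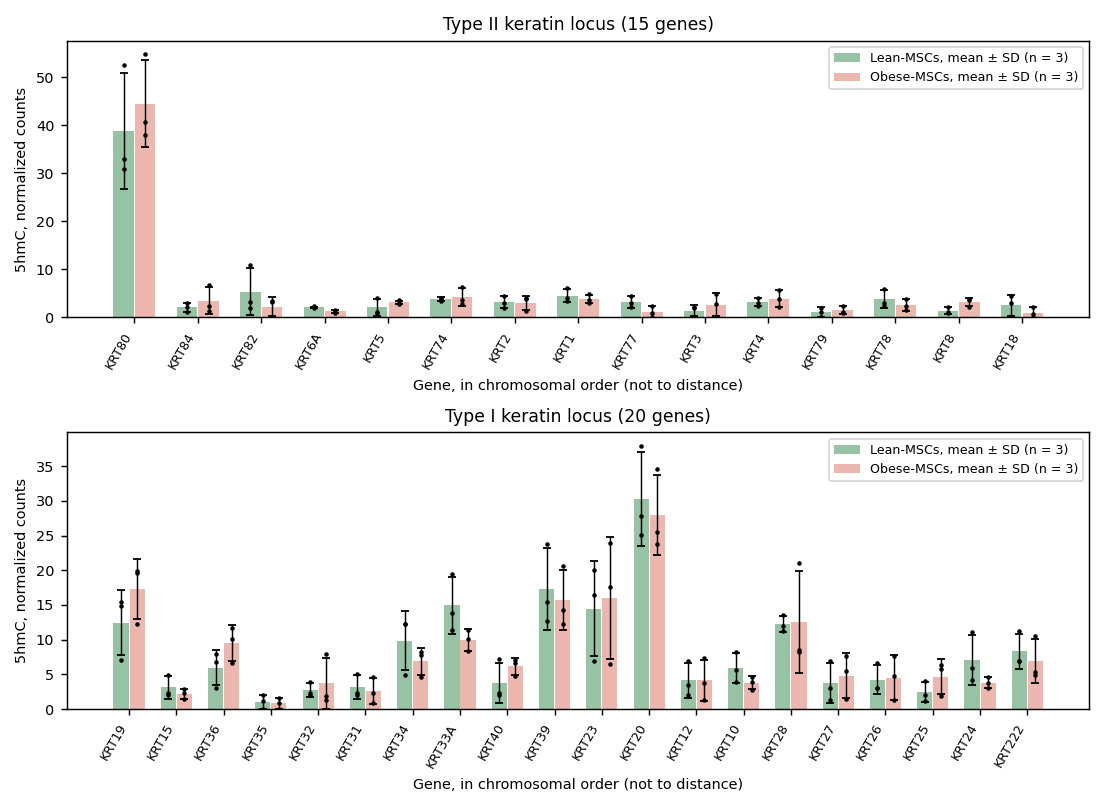
Exonic 5hmC, in normalized counts on the y axis, of the members in the type II (15 genes) and type I (20 genes) keratin loci, in chromosomal order on the x axis. Bars give means and whiskers SD of the 3 Lean (green) and 3 Obese (red) libraries, and points give the libraries: KRT80 stands above the other 14 genes of its locus, while higher values are spread along the type I locus.

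Basal and suprabasal epidermal keratins had few normalized counts. KRT5, of basal keratinocytes, had 3.09, 2.83 and 3.52 normalized counts in Obese-MSCs and 1.19, 0.989 and 4.08 in Lean-MSCs. KRT1, of the suprabasal layers, had 3.02, 4.76 and 3.56 against 3.46, 3.97 and 6.145, and its partner KRT10 had 3.88, 2.82 and 4.66 against 5.68, 3.97 and 8.19. The ranges of both groups overlapped in each of these genes. KRT2, of the upper epidermis, ranged from 1.30 to 4.46 over the 6 libraries. KRT15, of the basal layer and hair bulge, ranged from 1.46 to 4.97. The envelope proteins were as low, with IVL at 0.0109 to 2.98 and LOR at 0.914 to 4.04. At these levels genes with the same few reads receive the same value: IVL and KRT6A both had 1.57, 0.937 and 1.197 in the Obese libraries, and KRT8 and LOR both had 2.22, 0.991 and 1.03 in the Lean libraries. For a gene with a mean of 3 or less in either group, values are therefore given without a fold change.

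The first comparison asks whether obesity and its diet go with another level of 5hmC in MSCs. By the study's criteria (unadjusted p of 0.05 or less in a two-sided equal-variance test, with the Obese mean divided by the Lean mean reaching 1.4 or staying at 0.7 or below), KRT8 was high in Obese-MSCs and KLK7 and KRT6A were low. These 3 of 46 members (6.52%) stand beside 4.5% of all genes, or 2.07% high and 2.43% low. The groups did not overlap in 4 members (8.70%), KRT8 above and KLK7, KRT33A and KRT6A below the Lean libraries, beside 11.8% of all genes (5.7% above and 6.06% below). In limma, fitted on log2(normalized counts + 1) after leaving out the fifth of genes with the lowest means (15146 kept), 28 members were tested and 0 passed an adjusted p of 0.05, as did 0 of all genes. At an unadjusted p of 0.05 limma called 1 member, KLK7, and 6.81% of all genes.

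KLK7, a chymotrypsin-like protease that cuts desmosomal proteins in the outer epidermis (chr6:55644627-55649000), had 3.56, 9.53 and 9.29 normalized counts in Obese-MSCs and 13.6, 16.9 and 14.4 in Lean-MSCs. No Obese library reached the lowest Lean one, and Obese replicate 1 was the lowest of all. The means were 7.46 ± 3.38 and 14.97 ± 1.70 (SD, n = 3), a log2 ratio of -1.0045. limma gave a log2 difference of -1.01 (SE 0.38) with a Benjamini-Hochberg adjusted p of 0.679, and by exact permutation (two-sided) p was 0.1, which is the lower limit with 3 libraries against 3. Without any 1 of the Lean libraries KLK7 no longer met the criteria, although its log2 ratio stayed between -1.22 and -0.67 whichever of the 6 was left out. KLK5, the neighbouring trypsin-like protease, had 10.3, 4.67 and 9.35 against 11.3, 14.9 and 8.25, a log2 ratio of -0.50, and its groups overlapped.

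KRT8, the type II keratin of simple epithelia, had 2.22, 3.80 and 3.52 normalized counts in Obese-MSCs and 2.22, 0.991 and 1.03 in Lean-MSCs. The lowest Obese and the highest Lean library differed by less than 0.01, and KRT8 lost the call without Obese replicate 2, Obese replicate 3, Lean replicate 8 or Lean replicate 9. Its partner KRT18 did not share the direction, with 0.739, 0.00 and 2.25 against 4.41, 2.98 and 0.0149. KRT6A had 1.57, 0.937 and 1.197 against 2.26, 1.98 and 2.06, so that no library was above 3. KRT33A, a hair keratin (log2 ratio -0.59), had 10.1, 11.4 and 8.35 in Obese- and 11.5, 13.9 and 19.5 in Lean-MSCs, with an adjusted p of 0.825 in limma and an exact permutation p of 0.1.

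Among the 28 members with a mean above 3 in both groups, log2 ratios ran from -1.0045 to 0.69, and 6 (21.4%) were past a ratio of 1.4 or 0.7, as were 20.4% of all such genes. The highest were the hair keratins KRT40 (0.69) and KRT36 (0.67), and KRT19 (0.47). KRT40 had 7.06, 6.64 and 4.82 in Obese-MSCs against 2.35, 1.98 and 7.15, where Lean replicate 9 was the highest of all, and without that library the log2 ratio was 1.51 and KRT40 met the criteria. KRT19 had 19.6, 12.2 and 19.9 against 7.01, 14.9 and 15.4, and KRT36 10.2, 6.58 and 11.6 against 6.75, 7.95 and 3.11. The lowest after KLK7 were KRT24, an epithelial keratin (-0.89), and KRT10 (-0.65), and KRT24 moved to -0.40 without Lean replicate 7, which had 11.09. None of these 5 genes met the criteria with all libraries.

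By role, lower values in Obese-MSCs were found in most of the 11 barrier genes, while directions were mixed in a wider list given below. Of the 9 barrier genes with a mean above 3 in either group, 8 were lower in Obese-MSCs, and SPINK5 was the exception. The median log2 ratio of the 9 was -0.27. Of all genes above that level 49.4% were lower. Below that level, IVL had means of 1.24 in Obese- and 1.75 in Lean-MSCs, and LOR 2.45 and 1.42. TGM1, TGM3 and TGM5 had log2 ratios of -0.09, -0.30 and -0.15. DSC1 and DSG1, of the upper epidermis, had -0.27 and -0.26. TGM3 had 6.89, 8.54 and 8.23 normalized counts in Obese- and 8.004, 9.93 and 11.3 in Lean-MSCs. DSC1 had 9.46, 5.64 and 8.23 against 6.91, 12.9 and 8.23, and DSG1 2.02, 10.5 and 4.78 against 4.64, 8.94 and 7.19. Of these single differences, that of KLK7 alone met the criteria. With 1 library left out, the log2 ratio rose to as much as 0.04 for DSC1, 0.15 for DSG1 and 0.18 for TGM1. The cadherins share a locus, as do KLK5 and KLK7, so the barrier genes are not independent. No test was made on the set or its sum. Summed over the 11 genes, 5hmC was 149.5, 128.8 and 132.1 in Obese- and 172.8, 150.9 and 156.2 in Lean-MSCs, a sum to which TGM5 gave the largest part. Of the 30 keratins with a mean above 3 in either group, 15 were lower, with a median log2 ratio of 0.02. For all 35 keratins the sum was 245.6 ± 25.6 in Obese- and 245.7 ± 9.88 in Lean-MSCs (SD, n = 3). Over all 39 members with a mean above 3 in either group the median log2 ratio was -0.11, beside 0.01 for all genes, and 59.0% were lower in Obese-MSCs, beside 49.4% of all genes.

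The second comparison asks whether vitamin-C changes 5hmC of Obese-MSCs. DSG3 was high and KRT6A low in treated cells by the study's criteria. These 2 of 46 members (4.35%) stand beside 1.92% of all genes, or 1.11% high and 0.806% low. The groups did not overlap in 5 members (10.9%), DSG3 and LOR above and KRT4, KRT5 and KRT6A below the untreated libraries, beside 5.91% of all genes (3.24% above and 2.67% below). With limma 0 of 28 members and 0 of 15194 genes passed an adjusted p of 0.05. At an unadjusted p of 0.05 limma called 1 member, DSG3, and 0.974% of all genes.

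DSG3, the desmoglein of basal keratinocytes and the antigen of pemphigus vulgaris (chr6:115352005-115383750), had 9.05, 7.36 and 10.8 normalized counts in treated replicates 4 to 6 and 1.64, 2.18 and 6.12 in untreated replicates 1 to 3. Every treated library was above every untreated one, and untreated replicate 3 was the closest. The means were 9.07 ± 1.72 and 3.31 ± 2.45 (SD, n = 3), a log2 ratio of 1.45, with a range of 1.13 to 2.25 when each library was left out in turn. The limma log2 difference was 1.35 (SE 0.50), with a Benjamini-Hochberg adjusted p that rounds to 1.00, and the exact permutation p was 0.1. The call was lost without treated replicate 4 or 6 or untreated replicate 1 or 2. In the first table DSG3 had 1.404, 1.87 and 5.66 in the same untreated libraries and 7.80, 3.97 and 5.14 in Lean-MSCs, where the groups overlapped (exact permutation p = 0.3).

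The other 2 cadherins of the same locus (chr6:115042225-115383750) gave no such separation. DSG1 had 14.1, 5.46 and 8.92 with vitamin-C and 2.41, 11.6 and 5.31 without, a log2 ratio of 0.56. DSC1 had 9.05, 6.42 and 10.8 against 10.4, 6.49 and 9.05, a log2 ratio of 0.02. LOR, a main protein of the cornified envelope, had 7.04, 5.55 and 4.42 against 4.41, 1.12 and 2.63. The lowest treated library of LOR was level with the highest untreated one, and LOR did not meet the criteria (exact permutation p = 0.1). In Lean-MSCs of the first table LOR had 2.22, 0.991 and 1.03.

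**Figure D3:**
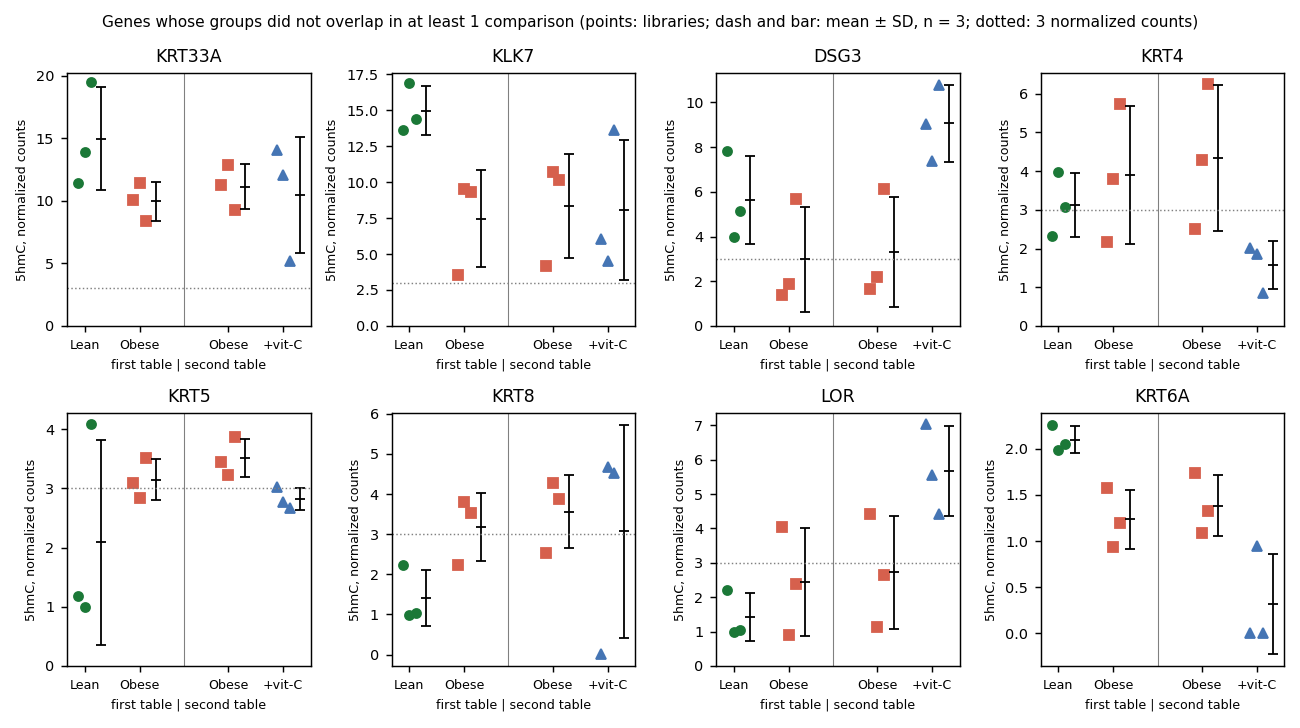
Exonic 5hmC, in normalized counts on the y axis, of the 8 members whose groups did not overlap in at least 1 comparison. Points are libraries, with Lean (green circles) and Obese (red squares) from the first table left of the line and untreated (red squares) and vitamin-C-treated (blue triangles) Obese from the second right of it, and dashes with whiskers give mean ± SD of 3 libraries. KLK7 and KRT33A lie above the dotted line at 3 normalized counts in every library, whereas most points of KRT8, KRT5 and KRT6A lie near or below it.

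The keratins that separated with vitamin-C were low ones. KRT4, of mucosal epithelia, had 2.01, 1.85 and 0.857 normalized counts in treated and 2.49, 4.29 and 6.26 in untreated cells. KRT5 had 3.02, 2.77 and 2.67 against 3.44, 3.23 and 3.87, so that its groups lay less than 1 normalized count apart. KRT6A had 0.00, 0.943 and 0.00 against 1.74, 1.09 and 1.33. KRT8, high in Obese- against Lean-MSCs, had 0.00, 4.68 and 4.53 with vitamin-C and 2.53, 4.27 and 3.87 without, and its groups overlapped. KRT18 had 2.01, 3.73 and 2.67 against 0.840, 0.0172 and 2.42.

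Among the 30 members with both means above 3, log2 ratios ran from -0.85 to 1.45, and 5 (16.7%) were past a ratio of 1.4 or 0.7, beside 12.2% of all such genes. The highest after DSG3 were DSG1 (0.56) and KRT12 of the cornea (0.50). The lowest were KRT40 (-0.85), the inner root sheath keratin KRT25 (-0.59) and KRT19 (-0.43). KRT40 had 7.03, 2.74 and 1.70 with vitamin-C against 7.81, 7.50 and 5.36, and it met the criteria only without treated replicate 4 (log2 ratio -1.63). Taken in the order of the replicates, each treated library of KRT40 was below its untreated counterpart, as in 9 of the 46 members and 11.2% of all genes. KRT19 had 8.06, 12.9 and 21.7 against 21.7, 14.0 and 21.8. KRT12 had 4.03, 5.52 and 9.98 against 7.95, 4.31 and 1.59, and KRT25 had 4.02, 2.75 and 3.58 against 7.00, 2.22 and 6.37. In none of these 5 genes did all treated libraries lie on the same side of all untreated ones.

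KLK7, low in Obese-MSCs, was not set apart by vitamin-C. It had 6.04, 4.54 and 13.6 normalized counts in treated and 4.14, 10.7 and 10.2 in untreated cells, a log2 ratio of -0.04, and KRT33A had 14.1, 12.1 and 5.21 against 11.2, 12.8 and 9.25, a ratio of -0.09. KLK5 had 7.04, 2.67 and 11.8 against 11.3, 5.45 and 10.3. The transglutaminases were likewise interspersed, with TGM1 at 11.08, 12.9 and 29.0 against 29.8, 10.8 and 12.1 and a log2 ratio of 0.00 (TGM3 -0.34, TGM5 -0.06). In TGM1 a single library of each group stood well above the rest. SPINK5 had a log2 ratio of 0.01 and KRT20 of 0.03, although KRT20 reached 51.3 in treated replicate 4 and only 21.2 and 23.1 in the other 2, and moved to -0.49 without the former.

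By role, the 15 hair and inner root sheath keratins had a median log2 ratio of -0.17, and their summed 5hmC was 97.6, 92.6 and 82.1 with vitamin-C and 104, 105 and 98.6 without. In the first table the same sum was 93.3, 93.0 and 89.5 in Obese- and 89.5, 93.3 and 95.5 in Lean-MSCs. No hair keratin met the criteria by itself. The sum over the 11 barrier genes was 158 ± 30.4 with vitamin-C and 152 ± 11.4 without (SD, n = 3), and those over the 21 type I and 14 type II keratins were 175 ± 18.2 against 184 ± 15.9 and 77.7 ± 15.4 against 89.8 ± 12.9. No test was made on these sums. Over the 36 members with a mean above 3 in either group the median log2 ratio was -0.08, beside 0.01 for all genes, and 58.3% were lower with vitamin-C, beside 49.3% of all genes.

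The spread between libraries was close to that of all genes at the same level in the first table, and larger in the second. Among members with means of 4 to 10, the median coefficient of variation within groups was 34.8% in the first table (15 genes) and 44.5% in the second (16 genes), beside 35.6% and 37.7% for all genes at that level. The median limma SE of a log2 difference was 0.42 and 0.45 for members, beside 0.33 and 0.34 for all genes tested. These SEs were not matched for level, and the median member had fewer normalized counts than the median gene.

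Other genes of the barrier pathway were taken from a list of 60, of which 51 were found in each table. In Obese- against Lean-MSCs 0 met the criteria as high and 4 (7.84%) as low, beside 2.07% and 2.43% of all genes. Whether or not they met the criteria, directions differed within the list. All 9 cornified envelope genes found had a lower mean in Obese-MSCs, whereas most of the 11 desmosome genes had a higher one. CNFN (cornifelin, of the cornified envelope) had 31.5, 37.9 and 45.6 against 62.3, 67.5 and 83.1, a log2 ratio of -0.89. CASP14, a caspase that processes filaggrin, had 42.5, 41.6 and 63.1 against 77.0, 94.3 and 85.2 (-0.80), and CDSN (corneodesmosin) 23.6, 17.02 and 18.9 against 30.5, 35.8 and 26.7 (-0.65). In these 3 genes no Obese library reached any Lean one, yet the limma adjusted p was 0.668, 0.668 and 0.704. HRNR, the fourth, had no library above 3. With vitamin-C 0 of the 51 were high and 2 (3.92%) low, KLK13, a kallikrein protease, at 9.06, 13.0 and 14.4 against 17.2, 19.3 and 20.6 (log2 ratio -0.65), and the tight junction gene CLDN1 at 16.1, 12.9 and 16.1 against 26.0, 18.3 and 24.5 (-0.61). CLDN1 also did not overlap in the first table, without meeting the criteria. It had 23.5, 16.0 and 22.3 in Obese- and 2.52, 14.9 and 10.3 in Lean-MSCs. The same held for OVOL1, higher in Obese-MSCs, and for KLK14 and ASPRV1, lower in Obese-MSCs. Groups did not overlap in 11.8% of all genes, and the untreated Obese libraries stand in both comparisons. With vitamin-C, CNFN, CASP14 and CDSN had log2 ratios of -0.27, -0.15 and -0.24.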

How the data were processed

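hMeDIP-seq libraries of swine MSCs were analysed from 2 deposited tables, 1 per comparison. Per the study's methods, the authors aligned read pairs to susScr 11.1 (Bowtie2 2.3.3.1), removed duplicates (Picard 1.67), counted reads over the exons of each gene (HTSeq 0.9.1) and processed the counts with edgeR 3.28.1. The deposited values are a normalized signal per gene (called normalized counts), fractional and scaled separately in each table, so no count test was run, and levels were compared within a table only. Read depth is unknown for most libraries. Residues near 0 (645, all in the second table) were set to 0.

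The test and thresholds stated in the study's methods (called the study's criteria) were applied here to all genes of each table. Counts and shares of genes meeting them come from this application and are not those printed in the study. limma 3.58.1 (R 4.3.3) was fitted on log2(value + 1), with its prior variance allowed to follow the mean, to the 80% of genes with the highest means, and p-values were adjusted by Benjamini-Hochberg over all of them. For single genes, all 20 arrangements of the libraries gave an exact permutation p (two-sided). Ratios are of group means, on the log2 scale. In simulated data, 200 genes drawn from those with a mean at or above the median were changed 3-fold. Every simulated gene was given the same dispersion, a median over genes of the real data, whereas real genes differ in spread. The criteria recovered 98.5% and limma 95% in the first comparison, with 617 and 8 other genes called. In the second they recovered 92% and 90.5%, with 658 and 3 others called. A mean above the median was held by only 8 members in the first table and 9 in the second. The rates therefore do not apply to most members. Positions and spans are from RefSeq (Sscrofa11.1), in which all 46 symbols were found.

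The genes, lists and tests were chosen with earlier results of these data known. Genes named were those meeting the criteria, the 3 highest and 3 lowest ratios of each comparison, and a set of epidermal and simple-epithelial genes. KRT4, KRT33A, KRT35, KRT79 and KRT80 lie outside this rule and were named after their values were seen. Genes of the wider barrier list were to be named only if they met the criteria. OVOL1, KLK14 and ASPRV1, and CLDN1 in the first comparison, did not meet them. They were named because their groups did not overlap, also after their values were seen. Replicates are separate libraries; p-values measure the spread between them.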

Additional observations from a re-analysis of the deposited data

How the results depend on the processing

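In Obese- against Lean-MSCs, 3 members met the study's criteria. The number was 0 at a p threshold of 0.01, 1 (KLK7) among genes in the upper 80% by mean, and 2 to 4 when each library was left out in turn. KLK7 lost its call on log2 values, which left 2 genes (KRT6A and KRT8), and KRT8 lost its call with unequal variances or quantile normalization, which left 2 (KLK7 and KRT6A). With vitamin-C, 2 members met them. The number was 0 at a p threshold of 0.01, 1 (DSG3) with unequal variances, on log2 values, with quantile normalization or in the upper 80% by mean, and 0 to 3 without 1 library. It was 0 without treated replicate 6 and 1 (KRT25) without untreated replicate 2. KRT6A kept its call in each of the 6 fits without 1 library in the first comparison, KLK7 in 3 and KRT8 in 2 of them, and in the second DSG3 kept its call in 2 of 6 and KRT6A in 1 of 6 (without treated replicate 5). limma called 0 members under the 13 alternatives of the first comparison and the 14 of the second. The median log2 ratio of members was -0.11 in the first comparison, between -0.26 (without Obese replicate 1) and -0.056 without 1 library, and -0.08 in the second, between -0.20 and 0.00. Of 136 and 152 values of single genes under other settings, 128 and 142 kept their side of the criteria and moved by less than 1 SD, and none changed sign with a call. In the first comparison, the log2 ratio of DSG1 moved to -1.03 without Obese replicate 2. Without Obese replicate 1 the ratio was -0.74 for TGM1 and -0.32 for SPINK5. In other fits without 1 library the ratio rose above 0, to 0.15 for DSG1, 0.04 for DSC1 and 0.18 for TGM1. In the second comparison, leaving out 1 treated library gave -0.81 for KRT1 (replicate 6), -0.89 for KRT24 (replicate 5) and -0.71 for TGM3 (replicate 4). Other scalings moved the median of all genes by under 0.01. The groups share no replicate numbers and the sources do not say which cultures share a pig. With treated replicates 4, 5 and 6 paired with untreated 1, 2 and 3 as a replicate block, a pairing read from the data and added after seeing them, limma called 0 members and 0 of all genes, and 1 member at an unadjusted p of 0.05. In 9 members every treated library was below its counterpart and in 3 above it, beside 11.2% and 10.9% of all genes. In the 8 members of the type II locus with a mean of 3 or less in the first table, a difference of a few reads decides a call, and no fold change was given.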
